A study of Mus musculus with 12 samples.

Results

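SLM2 binding was mapped to the genes of the Kv4 potassium channel complex in mouse brain. The 8 genes were *Kcnd2* and *Kcnd3*, which encode pore-forming subunits, *Kcnip1*, *Kcnip2*, *Kcnip3* and *Kcnip4*, which encode the cytoplasmic KChIP subunits, and *Dpp6* and *Dpp10*, which encode the DPP-like transmembrane subunits. A peak was counted for a gene where its centre lay within the gene in GENCODE vM21 on mm10 and on the strand of the gene. By this rule 46 of 2057 whole-brain peaks (2.24%, exact 95% interval 1.64 to 2.97) and 6 of 178 hippocampal peaks (3.37%, 1.25 to 7.19) belonged to the complex. SLM2, the product of *Khdrbs3*, is an RNA-binding protein and splicing regulator of neurons, and eCLIP recovers the RNA fragments that UV light has cross-linked to it. In all, 12 libraries were made from mice at 30 days of age, with tissue irradiated on dry ice in 3 exposures of 400 mJ/cm2. Wild-type whole brain and wild-type hippocampus each had 2 eCLIP and 2 size-matched input libraries, and a further 4 came from hippocampus of Slm2 KO mice and were not used here. A hippocampal lysate pooled tissue from several hippocampi and a whole-brain lysate held 1 brain. Each tissue is represented by 1 list that merges its 2 eCLIP libraries, so peak counts have no spread between replicates, and the intervals cover counting error only.

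Kv4 channels carry the fast-inactivating A-type potassium current of neuronal dendrites and cell bodies. This current opens below the spike threshold, delays firing and dampens dendritic spikes. KChIPs are calcium-binding proteins of the neuronal calcium sensor family that bind the channel from the cytoplasm, while DPP6 and DPP10 are peptidase relatives without enzymatic activity that speed up gating. Several of these genes use alternative promoters and first exons, which give their subunits different N termini.

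Binding to the complex was concentrated in 1 KChIP gene and 1 pore gene. In whole brain *Kcnip4* held 27 peaks, *Kcnd2* 15, *Dpp6* 3 and *Dpp10* 1. *Kcnd3*, *Kcnip1*, *Kcnip2* and *Kcnip3* held none. The hippocampal list had 5 peaks in *Kcnip4* and 1 in *Kcnd2*. No peak of either list lay on the opposite strand of a member.

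The RNA at these sites is shown first for the whole-brain intronic peak of highest fold change over input in each gene. Sequences are from the GRCm38 genome, the build of mm10, in the direction of transcription, with T standing for U, and every UUAA or UAAA is in capitals. These tetramers are the forms of UWAA (W = U or A), the element that SLM2 recognises. The peaks lie at chr5:49466981-49467081 (minus strand) in *Kcnip4*, chr6:21599239-21599342 (plus) in *Kcnd2*, chr5:27579427-27579646 (plus) in *Dpp6* and chr1:123440288-123440399 (minus) in *Dpp10*.
Kcnip4: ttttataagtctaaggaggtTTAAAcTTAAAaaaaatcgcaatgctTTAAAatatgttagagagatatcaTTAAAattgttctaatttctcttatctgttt
Kcnd2: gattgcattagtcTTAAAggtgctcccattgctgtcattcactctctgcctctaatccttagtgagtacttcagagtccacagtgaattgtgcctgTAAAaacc
Dpp6: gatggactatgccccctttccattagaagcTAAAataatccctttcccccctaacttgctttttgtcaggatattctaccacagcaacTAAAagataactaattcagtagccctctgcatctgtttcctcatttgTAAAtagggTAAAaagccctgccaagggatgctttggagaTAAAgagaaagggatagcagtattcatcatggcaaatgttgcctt
Dpp10: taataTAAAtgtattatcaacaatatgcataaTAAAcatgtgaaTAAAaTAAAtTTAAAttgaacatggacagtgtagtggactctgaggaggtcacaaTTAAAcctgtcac
Here and below, overlapping starts are counted, so that UUAAA gives both UUAA and UAAA. The *Kcnip4* sequence holds 8 UWAA, the *Dpp10* sequence 8, the longer *Dpp6* sequence 5 and the *Kcnd2* sequence 3. In the same order, the capitals cover 20, 26, 20 and 9 bases. A further *Kcnd2* peak, at chr6:21393509-21393612 (plus), is shown because it had the most UWAA of all member peaks within 50 nt of the centre.
Kcnd2 motif-rich peak: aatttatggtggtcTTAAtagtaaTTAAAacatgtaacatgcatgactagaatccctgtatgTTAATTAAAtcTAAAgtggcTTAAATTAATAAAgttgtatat
It holds 11 UWAA, 6 of them UUAA and 5 UAAA, many of which overlap. The next sequences are a pair of hippocampal *Kcnip4* peaks on the minus strand that differ in composition. The first, chr5:48884024-48884257, is the only hippocampal member peak that overlapped a whole-brain peak, and the second, chr5:49524401-49524534, begins close to the first exon.
Kcnip4 hippocampus, shared: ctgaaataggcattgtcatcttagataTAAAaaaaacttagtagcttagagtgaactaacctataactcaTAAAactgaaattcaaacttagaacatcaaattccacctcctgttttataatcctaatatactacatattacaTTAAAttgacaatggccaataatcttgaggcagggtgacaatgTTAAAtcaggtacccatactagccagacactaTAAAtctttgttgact
Kcnip4 hippocampus, near exon 1: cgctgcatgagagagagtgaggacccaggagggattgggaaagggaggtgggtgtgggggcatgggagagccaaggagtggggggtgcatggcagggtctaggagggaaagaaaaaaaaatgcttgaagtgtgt
The shared peak holds 7 UWAA over its 234 nt. The peak near exon 1 holds none, is 47.0% G, and has 4 starts of GGWGG (GGUGG or GGAGG).

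*Kcnip4*, which encodes KChIP4, had the most peaks of the complex. The gene spans 1135 kb of chromosome 5 (48389502 to 49524907, minus strand). Its 27 whole-brain peaks placed it 17 in order of peak number among 22028 protein-coding genes. Log2 fold changes over input ran from 2.01 to 2.90 with a median of 2.40, in a list whose lowest value is 2.00. The −log10 p of these peaks ran from 2.85 to 10.2. The lengths were 29 to 302 nt, with a median of 91. All 27 peaks lay in the first intron of the longest transcript, Kcnip4-201, an intron of 1015 kb that makes up 89.4% of the gene.

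The peaks were spread over most of this intron, though not its 3′ end, rather than stacked at 1 place. The first was 12.0 kb and the last 703 kb from the gene start. Neighbouring centres lay a median of 13.2 kb apart, the shortest gap being 0.150 kb and the longest 105 kb. Joining peaks within 50 nt left 25 sites, and joining those within 5000 nt left 19. The peak of highest fold change, printed above, stood at 2.90 and lay 57.9 kb from the gene start, and a weaker peak (2.24) lay just upstream of it. The next were 48884697-48884725 (2.84), 49323631-49323674 (2.80), 49220629-49220703 (2.76) and 49075076-49075163 (2.71). They lay 640, 201, 304 and 450 kb from the gene start. In order of fold change over the whole-brain list, 28.1% of peaks were at or above the strongest *Kcnip4* peak.

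A group of 3 neighbouring whole-brain peaks lay a few kb downstream of the first exon of the coding transcript Kcnip4-208. They were also the 3 whole-brain *Kcnip4* peaks nearest to any exon, at 4641, 4942 and 5094 nt from it. The farthest of them, 48883971-48884272, had the highest −log10 p of the member peaks (10.2) at a log2 fold change of 2.07. It enclosed the whole of the hippocampal peak 48884024-48884257, which had a log2 fold change of 2.41 and a −log10 p of 1.09. The 2 centres were 19 nt apart. The middle peak, 48884286-48884424, had a log2 fold change of 2.40 and 5 UWAA within 50 nt of its centre. There UWAA started at 5.10 of 100 positions, against 1.53 in its flanks. In the farthest peak, 48883971-48884272, it started at 2.04 of 100 positions, below the 3.06 of its flanks. In the hippocampal peak that this one encloses, UWAA started at 3.06 of 100 positions, the same as in its flanks.

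The annotation gives *Kcnip4* 8 transcripts with 8 different first-exon starts, all of which splice into shared downstream exons that begin at chr5:48482531-48482655. Of the 27 whole-brain peaks, 8 lay upstream of the first exon of Kcnip4-206, over 239 kb. Another 14 lay between this exon and the first exon of Kcnip4-208, over 396 kb. The last 5 lay between the first exons of Kcnip4-208 and Kcnip4-205, over 135 kb. These 3 stretches thus held 3.34, 3.53 and 3.70 peaks per 100 kb. The next 272 kb, which hold the first exons of Kcnip4-204 and Kcnip4-203, and the final 93.2 kb with the shared exons held no peak of either tissue. UWAA was nearly as frequent in the stretches without peaks. It started at 1.50, 1.61 and 1.66 of 100 positions in the 3 stretches with peaks and at 1.51 and 1.52 in those without, and A and T made up 61.3% to 63.1% of each stretch. The last whole-brain peak lay 339 kb before the first shared exon. These stretches were chosen after the peak positions were seen, and how much RNA was present over each was not analysed here. The 8 most upstream peaks lay within the transcripts Kcnip4-201 and Kcnip4-207 only, whose annotation has support level 5, the lowest, while Kcnip4-206, Kcnip4-208 and Kcnip4-204 have level 1. In 3 whole-brain peaks and 1 hippocampal peak, the centre also lay in a gene model of unclear status on the same strand (Gm42771, Gm43317, Gm43321 and Gm42769), so that these reads could come from either RNA.

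**Figure D1:**
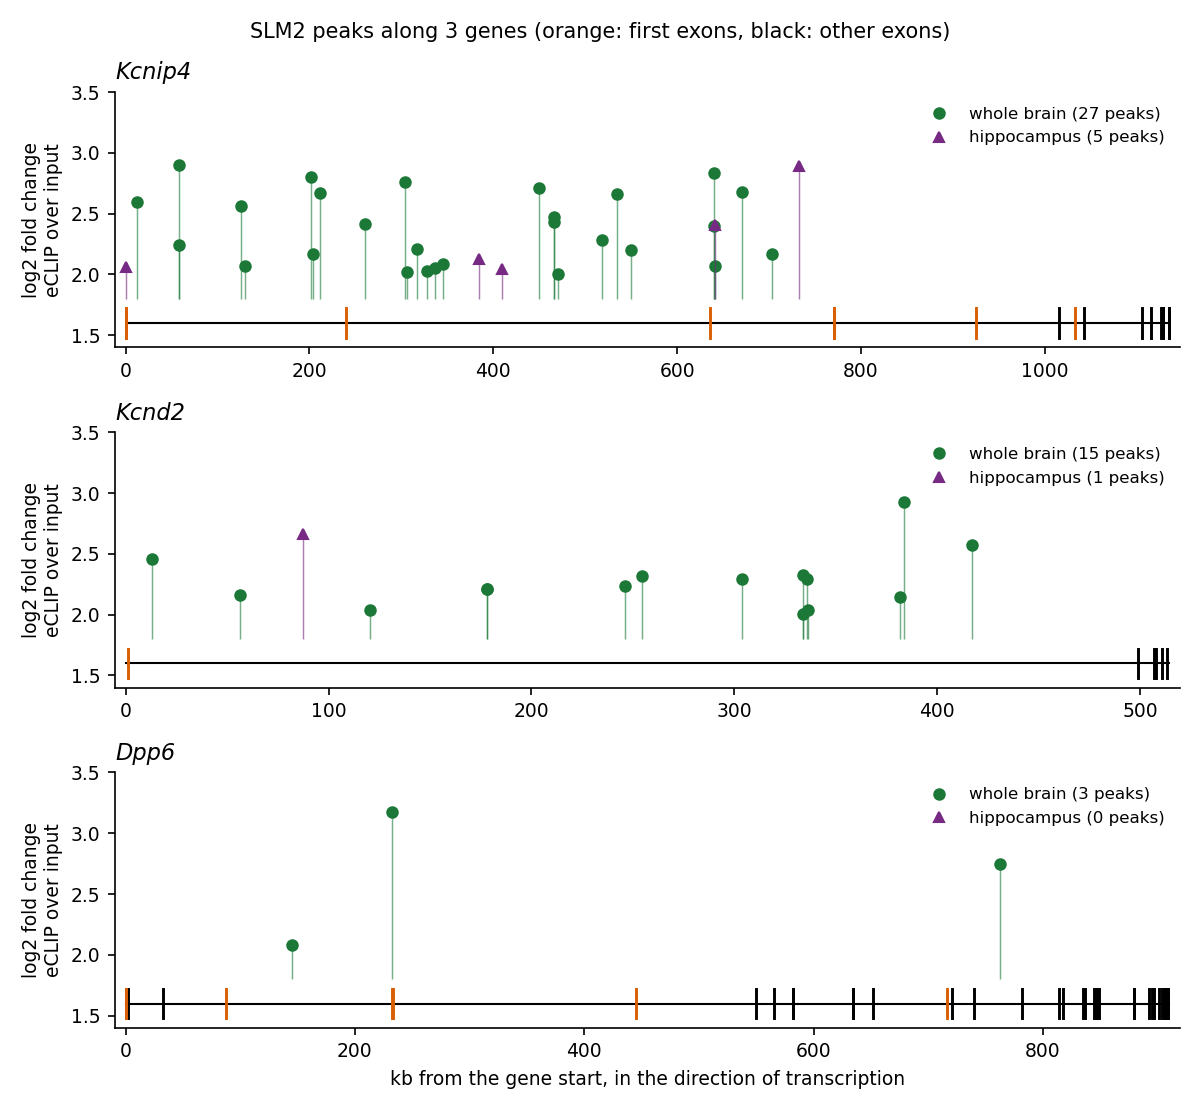
SLM2 peaks along *Kcnip4*, *Kcnd2* and *Dpp6*, with the distance from the gene start in kb on the horizontal axis and the log2 fold change over input on the vertical axis. Circles are whole-brain and triangles hippocampal peaks, and the gene model below shows first exons in orange and other exons in black. The *Kcnip4* peaks end before the first exon of Kcnip4-205 at 770 kb, and all *Kcnd2* peaks lie in the first intron.

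**Figure D2:**
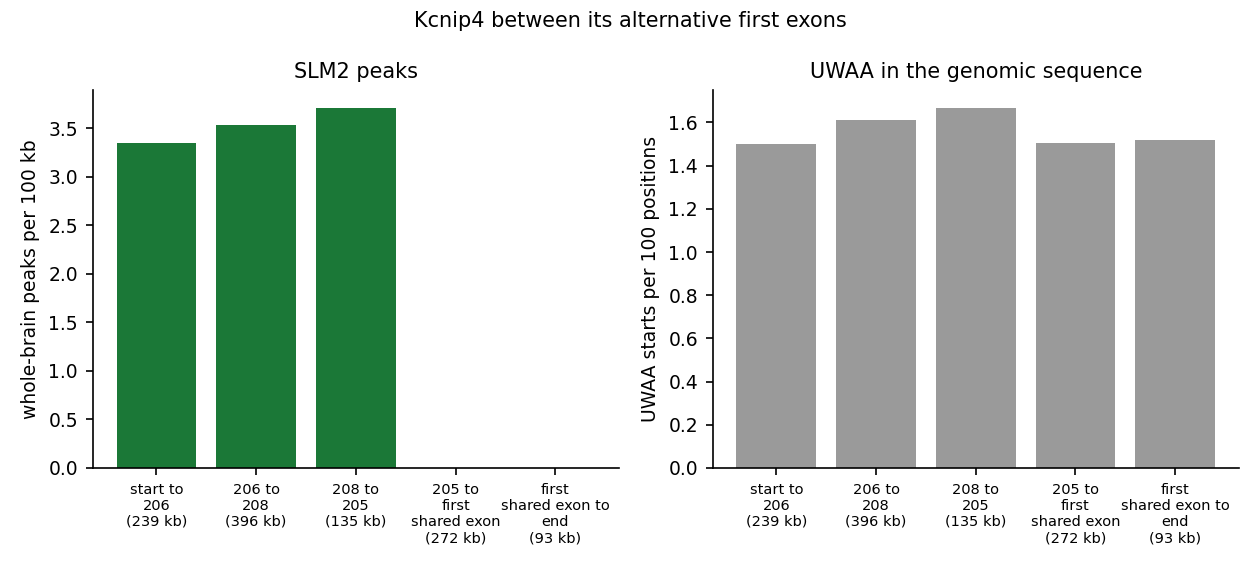
Whole-brain peaks per 100 kb (left) and UWAA starts per 100 positions of genomic sequence (right) in 5 stretches of *Kcnip4*. Stretches run from the gene start to the first exons of Kcnip4-206, Kcnip4-208 and Kcnip4-205, then to the first exon that every transcript shares, then to the gene end. Peaks stood at 3.34 to 3.70 per 100 kb in the first 3 stretches and at 0 in the others, while UWAA stayed between 1.50 and 1.66.

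*Kcnd2*, which encodes Kv4.2, the main A-type subunit of pyramidal cell dendrites, held 15 whole-brain peaks. The gene spans 514 kb of chromosome 6 (21215503 to 21729805, plus strand) and ranked 27 by peak number. All 15 lay in its first intron of 497 kb, which is 96.6% of the gene. Their log2 fold changes ran from 2.00 to 2.93 with a median of 2.23, and the −log10 p from 2.94 to 9.22. The strongest peak, 21599239-21599342, was followed by 21632739-21632836 (2.57), 21228324-21228400 (2.46), 21549203-21549273 (2.33) and 21469717-21469818 (2.32).

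The *Kcnd2* gene has a single annotated transcript with 6 exons, and its peaks lay deep in the intron. The median distance to the nearest exon was 163 kb in *Kcnd2* and 67.0 kb in *Kcnip4*. These distances depend on the annotation, because first exons of other transcripts lie within the long *Kcnip4* intron and no exon lies within that of *Kcnd2*. They therefore do not show that binding was deeper in *Kcnd2*. The *Kcnd2* peaks nearest to an exon lay 10.9 kb (21228324-21228400), 54.4 kb (21271849-21271923) and 81.3 kb (21632739-21632836) away. Split into 4 equal parts, the intron held 3, 3, 6 and 3 peaks from its 5′ to its 3′ end. The third part includes 4 peaks within 3 kb of one another, between 334 and 336 kb from the gene start. The motif-rich peak 21393509-21393612 lay next to 21393614-21393733, and both carry the same log2 fold change (2.21) and −log10 p (9.22), the highest −log10 p in the gene. The first of the pair had 11 UWAA near its centre and the second had 1. The window around the centre is 8.91% repeat-masked in the first and 100% in the second.

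The DPP-like subunits had fewer peaks than *Kcnip4* and *Kcnd2*. *Dpp6* (chr5:26817203-27727505, plus strand) spans 910 kb and held 3 peaks in whole brain. The strongest, 27049822-27049966, had a log2 fold change of 3.18 and lay 233 kb from the gene start, immediately after the first exon of the coding transcript Dpp6-204, which ends at 27049813. Its centre was in the retained-intron transcript Dpp6-209, and it was the only member peak with its centre in an exon. It had no UWAA within 50 nt of its centre and 6 starts of GGWGG over its length. The second *Dpp6* peak, 27579427-27579646 (2.74), lay in intron 7 of Dpp6-201, 19.2 kb upstream of an exon. The third, 26962348-26962501 (2.08), lay in intron 1, 57.1 kb from an exon, and had no UWAA within 50 nt of its centre.

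*Dpp10* (chr1:123321471-124045559, minus strand) spans 724 kb and held 1 peak. Its log2 fold change of 4.08 was the highest in the complex, and the peak took place 31 of the 2057 in the whole-brain list. It lay in intron 8, 4802 nt downstream of an exon, at 83.6% of the length of the gene. It had 7 UWAA within 50 nt of its centre, and 38.6% of this window is repeat-masked.

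The pore gene *Kcnd3*, which encodes Kv4.3, had no peak over 222 kb (chr3:105452330-105674002). Nor had the KChIP genes *Kcnip1* (364 kb), *Kcnip2* (24.2 kb) and *Kcnip3* (65.6 kb). KChIP2 is best known from heart and KChIP3 is also called DREAM or calsenilin. A gene without a listed peak may still be bound below the thresholds of the list, and the abundance of these RNAs was not analysed here, so peak number cannot be told apart from the amount of pre-mRNA.

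Read against other genes, the number of members with a peak followed gene length. Of the 8 members 4 had a whole-brain peak, where 1.91% of all protein-coding genes did. All 4 exceed 500 kb, and of the 230 protein-coding genes of this length 45.7% had a whole-brain peak. The 4 members without one measure between 20 and 500 kb, where 3% of 9937 genes had one. In hippocampus 2 of the 8 members had a peak, against 0.377% of all protein-coding genes, 14.8% of those of at least 500 kb and 0.382% of those of 20 to 500 kb. Among the long genes *Kcnip4* and *Kcnd2* stood high by peak number, since 14 of the 230 had more peaks than *Kcnip4* and 21 more than *Kcnd2*, and the median long gene with a peak had 4. Over all 230 long genes, with or without a peak, the median was 0 and the upper quartile 3, so that *Dpp6* stood at the upper quartile and *Dpp10*, with 1, above the median. Per 100 kb *Kcnd2* had 2.92 peaks and *Kcnip4* 2.38. *Dpp6* had 0.330 and *Dpp10* 0.138. The median over long genes with a peak was 0.383, below *Kcnip4* and *Kcnd2* and above both DPP genes.

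**Figure D3:**
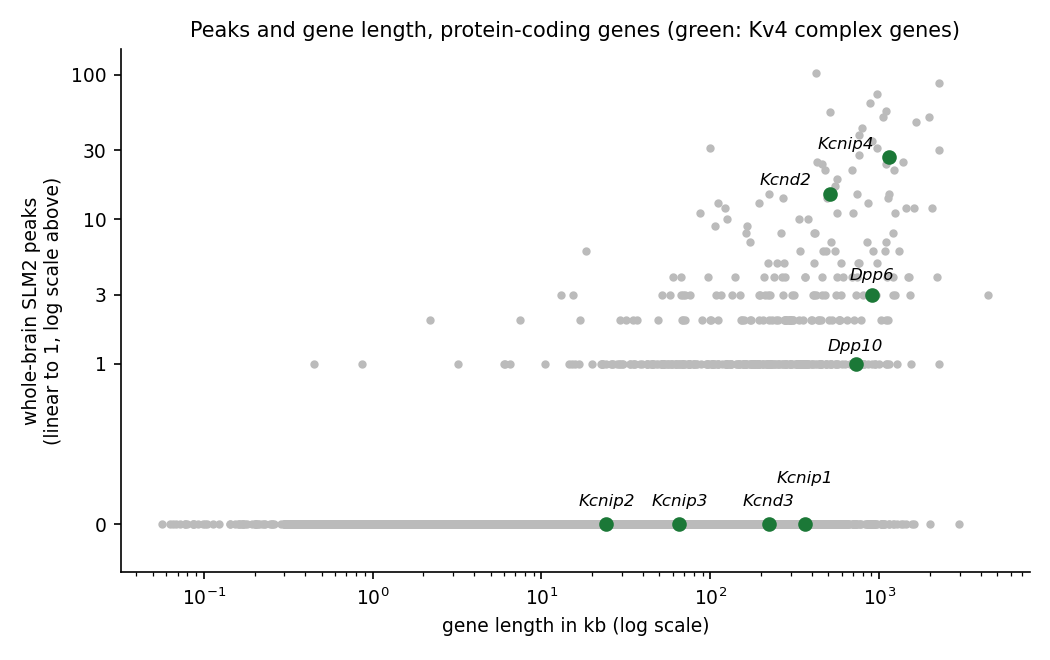
Number of whole-brain SLM2 peaks (linear up to 1, log scale above) against gene length in kb (log scale) for all protein-coding genes, with the Kv4 complex genes in green. *Kcnip4* and *Kcnd2* lie among the long genes with many peaks, *Dpp6* and *Dpp10* at 3 and 1, and the other 4 members at 0.

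The genes most like *Kcnip4* in peak number, by Euclidean distance in log2(peaks + 1) over the 2 tissues, were *Celf2*, *Grik2* and *Fam155a*. They encode an RNA-binding protein, a kainate receptor subunit and an accessory protein of the NALCN sodium leak channel. *Celf2* had 31 whole-brain and 3 hippocampal peaks (distance 0.616), *Grik2* 22 and 3 (0.650) and *Fam155a* 19 and 3 (0.760). Each is a long gene, from 565 to 970 kb.

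UWAA was denser at the whole-brain member peaks than beside them. Within 50 nt of the 46 peak centres it started at 3.95 of 100 positions (exact 95% interval 3.40 to 4.56), and in the 2 flanks from 450 to 550 nt away at 1.55. The interval treats positions as independent, although starts can overlap and most peaks lie in *Kcnip4* and *Kcnd2*, so it is too narrow. The peak exceeded its own flanks in 39 of 46 cases. The other 2011 whole-brain peaks had 3.59 at the centre and 1.81 in the flanks, with 66.0% of peaks above their flanks. The centre windows of 43 member peaks (93.5%, 82.1 to 98.6) held the motif, compared with 83.3% of those of other peaks. The motif was searched on the RNA strand only. A longer element, UUUAAAA or UUAAAAA, occurred in 8 of the 46 windows (17.4%), and in 18.9% of the windows of other peaks. It had 11 starts in these windows and 8 in the flanks, which together are 2 times as long.

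The 2 genes with many peaks resembled each other in this respect. In *Kcnip4* UWAA started at 4.23 of 100 positions at peaks and 1.64 in flanks, and in *Kcnd2* at 3.81 and 1.50. All 27 *Kcnip4* peaks had at least 1 UWAA and 25 exceeded their flanks. In *Kcnd2* 14 of 15 peaks had one and 12 exceeded their flanks, with counts from 0 to 11 per peak. The single *Dpp10* peak had 7.14 against 1.53. *Dpp6* stood apart, with 1.02 at its 3 peaks and 1.02 in flanks, and 2 of the 3 had no UWAA near the centre. Among 74 protein-coding genes with at least 5 whole-brain peaks, the excess at peaks had a median of 2.13 and ranged from −0.907 to 4.08. *Kcnip4*, with 2.59, took place 14 and *Kcnd2*, with 2.31, place 28.

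**Figure D4:**
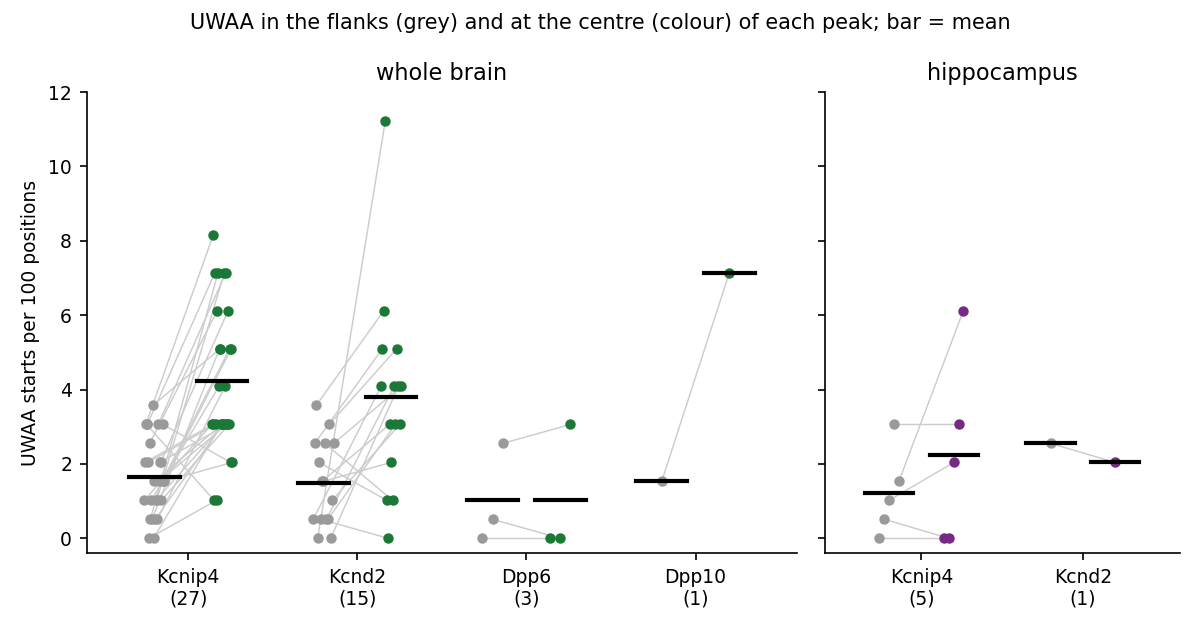
UWAA starts per 100 positions in the flanks (grey) and within 50 nt of the centre (green for whole brain, purple for hippocampus) of each member peak, joined by a line, with the number of peaks under each gene and the mean as a black bar. In whole brain the means were 1.64 and 4.23 in *Kcnip4* and 1.50 and 3.81 in *Kcnd2*, while in *Dpp6* both were 1.02.

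AAWU (AAUU or AAAU), which has the same base composition, was also denser at member peaks. It started at 3.33 of 100 positions there and at 1.84 beside them. The motifs can share bases, as in UAAAU, so AAWU is not a separate control. How much of its excess lies in shared bases was not tested. The difference was 1.49 for AAWU and 2.40 for UWAA. In *Kcnip4* AAWU had 3.74 at peaks and 1.76 in flanks, and A and T made up 69.5% of the peak windows and 63.9% of the flanks. In *Kcnd2* AAWU had 2.86 and 2.07, where A and T were 62.2% at peaks and 62.6% in flanks. *Kcnd2* peaks thus had more UWAA than their flanks without more A and T. Of the windows, 24 of 46 (52.2%) held more than 20% repeat-masked bases, compared with 50.9% of other whole-brain peaks. The 22 windows under this limit had a UWAA difference of 2.04.

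**Figure D5:**
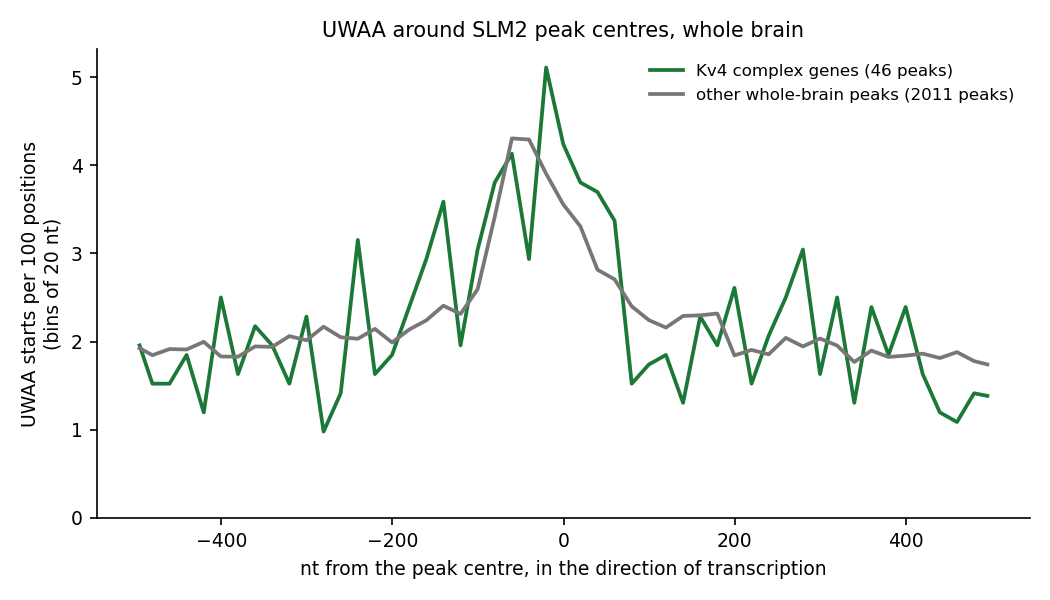
UWAA starts per 100 positions in bins of 20 nt around the centres of whole-brain peaks, for the 46 peaks of the Kv4 complex genes (green) and the 2011 other peaks (grey). The member peaks reach 5.11 in the bin from 30 to 11 nt before the centre and the other peaks reach 4.30 between 70 and 51 nt before it.

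Over the whole gene, UWAA was most frequent in *Kcnd2*, *Kcnip4* and *Dpp10*. It started at 1.73 of 100 positions of *Kcnd2*, 1.56 of *Kcnip4* and 1.52 of *Dpp10*. *Dpp6* had 1.02, *Kcnip1* 0.916, *Kcnd3* 0.812, *Kcnip2* 0.747 and *Kcnip3* 0.602. The share of A and T followed the same order, from 63.0% in *Kcnd2* to 49.4% in *Kcnip3*. Among the 230 genes of at least 500 kb, 90.9% had a lower density than *Kcnd2*, 72.2% than *Kcnip4*, 68.7% than *Dpp10* and 10.0% than *Dpp6*. Of the genes of 20 to 500 kb, between 7.50% and 27.5% had a lower density than the 4 members without a peak. Among these long genes the classes with and without a peak overlapped widely, with a median of 1.43 (quartiles 1.29 and 1.64) in the 105 with a whole-brain peak and 1.33 (1.18 and 1.51) in the 125 without. The members with a peak exceeded those without in gene length, A and T content and UWAA density alike. Among those with a peak, UWAA density did not follow length. *Kcnd2*, the shortest of them (514 kb), had the highest density, and *Dpp6* (910 kb) the lowest.

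The hippocampal peaks of the complex were weaker than the whole-brain peaks by p. The −log10 p of the 5 *Kcnip4* peaks was 0.746, 0.749, 0.841, 1.09 and 1.81, and the *Kcnd2* peak had 2.16. Every whole-brain member peak had at least 2.85, in a list whose lowest value is 2.82. The lists as wholes differed in the same way. The median was 1.78 in the other 172 hippocampal peaks and 4.32 in the other 2011 whole-brain peaks. The *Kcnd2* peak (21302817-21303063, log2 fold change 2.66) lay in intron 1, 30.9 kb from the nearest whole-brain peak, and had 8 UWAA over its 247 nt. Within 50 nt of its centre it had 2, or 2.04 of 100 positions, below the 2.55 of its flanks. The strongest hippocampal *Kcnip4* peak, 48792505-48792588 (2.89), had 6 UWAA within 50 nt of its centre, in a window that is 87.1% repeat-masked. It lay 29.0 kb beyond the last whole-brain peak.

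The 3 remaining hippocampal *Kcnip4* peaks were rich in G. They were 49524401-49524534 (2.06), 49140071-49140198 (2.13) and 49115788-49115899 (2.04). G made up 47.0%, 41.4% and 39.3% of them, against a median of 13.2% in the whole-brain peaks of the gene, and each had 2 to 4 starts of GGWGG. In the same order, 19.8%, 100% and 89.1% of the bases within 50 nt of the centre are repeat-masked. Over 20% was masked in 56.4% of the other hippocampal windows. The other 172 hippocampal peaks had a median of 23.5% G, and 26.2% of them had GGWGG. The second of these also matched at least 10 nt of a sequencing adaptor or primer, which no whole-brain member peak did and 9 of the other hippocampal peaks did. The first lay 107 nt downstream of exon 1 and was the hippocampal member peak nearest to an exon. Over all 6 hippocampal member peaks UWAA started at 2.21 of 100 positions (1.18 to 3.75), and at 1.45 in flanks. The other hippocampal peaks had 2.56 and 1.68. Of the 6, 1 overlapped a whole-brain peak, and the other 5 were 11.4 to 40.6 kb from the nearest one. The share of all hippocampal peaks that overlap a whole-brain peak was not counted here, so 1 of 6 cannot be read as particular to these genes. Library depth is not given in the peak lists and was not analysed here, so tissue and depth cannot be told apart in these comparisons.

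Exons were rarely near a member peak. In whole brain 45 of 46 peaks (97.8%, 88.5 to 99.9) were intronic and 41 lay over 10 kb from the nearest annotated exon, while 1 lay within 500 nt of an exon, the *Dpp6* peak in Dpp6-209. In hippocampus all 6 were intronic, and 1 of them, the *Kcnip4* peak downstream of exon 1, lay within 500 nt. These shares were not computed over all peaks of the lists, so they cannot be read as particular to the members. Along the gene, the whole-brain peaks of *Kcnip4* had their median at 29.6% of its length and those of *Kcnd2* at 59.0%. Peaks of the other protein-coding genes of at least 500 kb had their median at 34.4% (quartiles 16.6 and 56.5). Of these 1132 peaks, 20.7% lay farther along than the last *Kcnip4* peak, which was at 61.9%. Beyond the last *Kcnd2* peak, at 81.1%, lay 4.77% of them. Both limits were set by the members' own last peaks, so the shares do not test for a lack of peaks beyond them.

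Some relatives and partners of the members also had peaks. Their counts stand beside the 1.91% of all protein-coding genes with a whole-brain peak and the 0.377% with a hippocampal peak, without matching for gene length. *Kcnd1*, the remaining Kv4 pore gene, had none, and its 16.0 kb make it short. Among 9 other neuronal calcium sensor genes *Vsnl1*, which encodes visinin-like protein, had 1 whole-brain peak (log2 fold change 2.58). None of 6 dipeptidyl peptidase genes and none of the 7 annotated Kv auxiliary subunit genes of the KCNAB and KCNE families had one. Of 37 other voltage-gated potassium channel pore genes, 6 had a whole-brain peak, 32 peaks in all. *Kcnh7*, which encodes an ERG-type channel, had 14 (highest log2 fold change 3.92), and *Kcnq5*, which encodes an M-current subunit, had 11 (4.24). UWAA started at 5.32 of 100 positions at the *Kcnh7* peaks and 2.51 in their flanks, and at 5.94 and 1.86 in *Kcnq5*, which had the highest excess of the 74 genes. *Kcnc2* had 3 peaks, *Kcnb2* 2, and *Kcnc1* and *Kcns2* 1 each. *Kcns2*, a short gene of 6.05 kb for a modifier subunit, also held 1 hippocampal peak, and its whole-brain peak had the highest log2 fold change of these genes (4.41) with no UWAA near the centre. Of 8 genes for other reported Kv4 partners, *Dlg1* had 3 whole-brain peaks, *Fmr1* had 1 and *Dlg4* had 1 in hippocampus. *Dlg1* and *Dlg4* encode the scaffolds SAP97 and PSD-95, and *Fmr1* encodes the RNA-binding protein FMRP. The lists measure binding and not expression, so tissue identity was not checked by marker level. Marker genes were examined for 7 cell types. In whole brain, peaks lay in 1 of 6 oligodendrocyte genes, the myelin gene *Mbp* (13 peaks). They also lay in 1 of 5 astrocyte genes, the transporter gene *Slc1a2* (1 peak). In hippocampus, 1 of 4 pyramidal neuron genes, the kinase gene *Camk2a*, had a peak (1). No other marker gene had a peak in either list.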

How the data were processed

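SLM2 eCLIP and size-matched input libraries were made from wild-type mouse whole brain and hippocampus. Per the labels and methods, cutadapt 3.4 was used by the authors for trimming, STAR 2.7.9 for mapping to mm10 and UMI-tools 1.1.1 for collapsing duplicates. Peaks came from CLIPper and replicates were merged by IDR. The deposited lists give the log2 fold change of eCLIP over input for each peak. They also give the −log10 of the p for eCLIP against input, as computed by the authors, and the IDR as a deposited score on the −log10 scale, and hold peaks of at least 2 in log2 fold change and −log10 IDR. The lists have no column names, and the meaning of columns was inferred from the authors' supplementary table. Fold changes depend on input depth, and low input depth makes them less certain.

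Here, peaks were assigned to GENCODE vM21 genes by centre and strand, with all exons of all transcripts counted as exonic. UWAA was counted in windows reaching 50 nt to each side of the centre and in flanks at 500 nt, in the GRCm38 genome, and the counting was tested on simulated data. Masked bases are those in lower case in that genome, and an adaptor match is at least 10 nt. No test between groups was made. Members and gene lists were chosen with earlier results of these data known. Named were all members, every related gene with a peak, the 3 genes closest in peak number to the member with most peaks, all peaks of members with at most 6 whole-brain peaks, the 5 strongest and 3 most exon-near peaks of the others, and all hippocampal peaks. The printed sequence of *Dpp6* is that of its strongest intronic peak. The motif-rich *Kcnd2* peak and the hippocampal peak near exon 1 were added after their values were seen. The AAWU comparison was also added after seeing the data. The software was Python 3.11.15 with pysam 0.24.0, pandas 2.3.3, matplotlib 3.10.9, numpy 2.4.6 and scipy 1.17.1.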

Additional observations from a re-analysis of the deposited data

How the results depend on the processing

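No paired analysis was possible because each deposited list merges the replicates of a tissue. Of 31 alternatives, 17 left the value within its interval or within 1.5 times the count, among them any overlap in place of the centre, which gave 46 and 6 peaks. The number of whole-brain member peaks fell from 46 to 2 for fold changes of 3 or more on the log2 scale (1 each in *Dpp6* and *Dpp10*), to 7 at a −log10 IDR of at least 3 and to 22 without windows over 20% masked, and the opposite strand held 0. The 6 hippocampal peaks became 0, 1 and 3 under the same filters, 1 at a −log10 p of at least 2, and 0 on the opposite strand, and none that was left at this −log10 p overlapped a whole-brain peak (0 in place of 1). The intronic share of 98.1% over both lists was 100% with exons of protein-coding transcripts only and 50.0% over the 2 peaks left by the fold-change filter. The UWAA difference of 2.40 per 100 positions was 1.70 with flanks 200 nt away and 1.49 with AAWU in its place, 2.12 without *Kcnip4*, and between 2.01 and 2.94 with other window sizes. Peak lists carry no read counts, so the depth behind each peak is unknown and a gene with 0 peaks is only below the thresholds.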

Other observations

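Motif-rich stretches of the bound members far outnumbered the stretches touched by a peak, so most of them had to lack one. Cut into consecutive windows of the length used at peaks, *Kcnip4* had 628 windows with at least 5 UWAA, of which 13 (2.07%) touched a whole-brain peak, against 52 of all 11241 windows (0.463%). With at least 7 UWAA the numbers were 8 of 118 windows (6.78%). In *Kcnd2* 2 of 77 windows with at least 7 UWAA (2.60%) touched a peak, against 29 of all 5092 (0.570%). *Dpp10* had 94 such windows, of which 1 touched its single peak, and *Dpp6* had 42, of which 0 did. Per 100 kb, *Dpp10* and *Kcnip4* were alike in such windows, with 13.0 and 10.4, although they held 1 and 27 peaks. *Kcnip1*, which had no peak, had 13 such windows, and *Kcnd3*, *Kcnip2* and *Kcnip3* had 1 each. The windows were defined after the peaks of these genes were known, and the RNA level over them was not analysed here.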
